A study of Mus musculus with 7 samples.

Results

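Transcription factors that act in ovulation, together with factors that act beside the progesterone receptor (PGR), were examined in ovarian stromal tissue with and without PGR. The set was a list of 10 named genes, Runx1, Runx2, Cbfb, Cebpa, Cebpb, Hif1a, Epas1, Nr5a2, Gata4 and Gata6, out of 52230 genes to which deposited transcripts were matched. All 10 passed the filter on low counts that left 19233 genes for testing. The rule for the list used no measured value.

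The tissue was the ovary that remained after granulosa cells had been released by puncture, which the study calls stroma. It holds stromal, theca, endothelial and immune cells, with whatever granulosa cells and oocytes were left behind. The mice were females of the PRKO line, in which KO mice carry the Pgrtm1Bwo null allele of Pgr in all tissues, and the compared genotypes were PGR +/+ (WT, 4 libraries numbered 1 to 4) and PGR -/- (KO, 3 libraries numbered 2 to 4). Every mouse in both groups received 5 IU PMSG and, 44 h later, 5 IU hCG, and ovaries were taken 8 h post-hCG. The sample labels give an age of 21 to 27 days and the series design an upper bound of 25 days. Each library was pooled from 3 mice, so that differences between single mice within a pool cannot be seen.

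RUNX1 and RUNX2 bind DNA as heterodimers with CBFB, which has no DNA contact of its own and stabilises the complex, and both RUNX factors are known to be induced in follicles by the luteinizing hormone surge. C/EBP alpha and C/EBP beta are leucine zipper factors that act downstream of the same surge, HIF1A and EPAS1 (HIF-2 alpha) are the oxygen-regulated partners of ARNT, and NR5A2 (LRH-1) and the zinc finger factors GATA4 and GATA6 are regulators of steroidogenic genes. All act as proteins, and HIF alpha subunits in particular are controlled by degradation, which mRNA levels do not show.

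Depth was 47.4 M to 63.4 M assigned reads per library. Pgr, the targeted gene, stood at 16.8 to 31.0 CPM (reads of a gene scaled to library size) in WT and 6.13 to 7.56 CPM in KO, so that the KO libraries were the 3 lowest and reads assigned to the gene remained there (logFC = -1.72, SE 0.202, edgeR adjusted p = 0.0544). The same gene passed the threshold in DESeq2, with an adjusted p of 3.8e-15. Markers of granulosa cells summed to 2410 to 3920 CPM in WT and 3130 to 3890 CPM in KO, so the tissue labelled as depleted still held their RNA. All 5 theca markers had lower fitted values in KO (sums of 757 to 1660 CPM in WT and 714 to 1010 CPM in KO), and all 8 oocyte markers had higher fitted values (290 to 370 CPM against 324 to 478 CPM), none of them past the adjusted threshold. No marker of these 3 cell types was at 0 in any library. In bulk tissue fewer cells of a type and less RNA per cell cannot be told apart.

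None of the 10 genes was called between KO and WT by edgeR, for which a call needed an adjusted p no higher than 0.05 and a log2 fold change of 0.5 or more in size, where 0.0104% of all tested genes were called. DESeq2, which called 0.436% of all genes it tested, and limma-voom (0.0104%) also called 0 of the 10. Epas1 alone had an unadjusted p under 0.05 in edgeR, 1 of 10 members against 8.94% of all tested genes. This count rested on single libraries and settings. Cebpa joined it in DESeq2, limma-voom and with other scalings and filters, and 4 members passed without WT1 (Cebpa, Epas1, Gata4 and Runx2, against 8.8% of all genes) and 3 without KO4 (Cebpa, Cebpb and Epas1, against 12.3%). In CPM, Epas1 was also the single member whose KO libraries all lay outside the WT range, against 9.05% of all tested genes. On the TPM scale, which uses no TMM factor, Epas1 overlapped and Cebpa was the single member apart, against 8.13% of all tested genes. Fitted values were higher in KO for 4 members and lower for 6, with a median log2 fold change of -0.01, and the median size of the difference was 0.13 on the log2 scale against 0.10 over all tested genes.

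**Figure D1:**
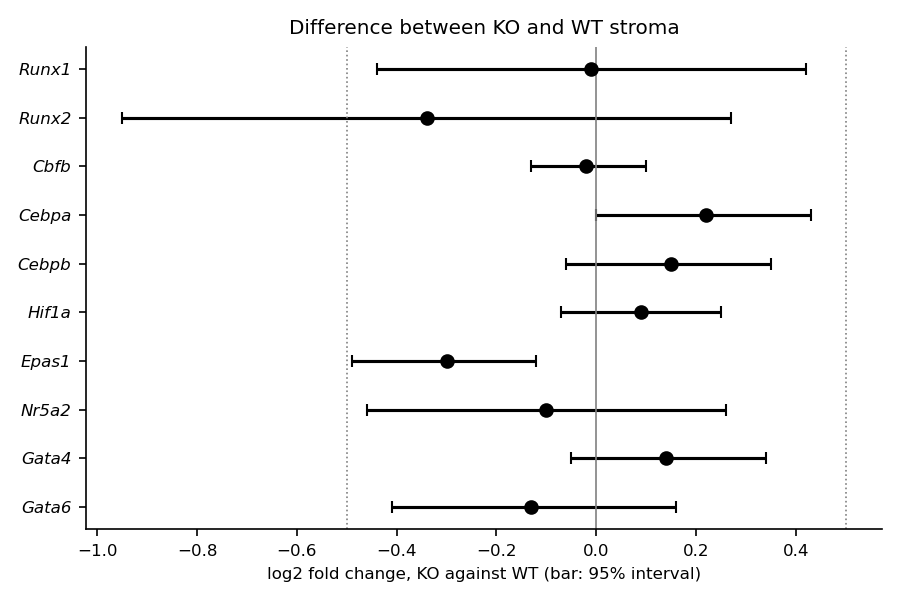
Log2 fold change of KO against WT stroma for the 10 factors from the edgeR fit on all genes (x axis, log2 scale; points, estimates; bars, 95% intervals; dotted lines, the threshold of 0.5 in either direction). The interval of Epas1, from -0.49 to -0.12, lies wholly below 0, and that of Runx2, from -0.95 to 0.27, is the widest.

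Per length of transcript, all 10 factors lay above most tested genes. Hif1a was highest at 113 ± 11.9 TPM (level scaled by transcript length and library total, SD, n = 4 WT libraries), followed by Gata4 at 105 ± 5.29 TPM, Cebpb at 88.5 ± 5.78 TPM, Nr5a2 at 80.4 ± 14.5 TPM and Epas1 at 72.2 ± 7.28 TPM. Cbfb at 57.0 ± 2.51 TPM and Runx2 at 53.4 ± 22.7 TPM came next, and Cebpa at 30.4 ± 1.99 TPM, Gata6 at 21.0 ± 3.55 TPM and Runx1 at 20.6 ± 6.03 TPM were lowest. The highest of them, Hif1a, exceeded 93.3% of all tested genes in mean WT TPM, and the lowest, Runx1, exceeded 66.5%.

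Neighbours in this order were compared within libraries by an exact two-sided sign-flip test over all 7 libraries, whose smallest possible p is 0.0156. Gata4 was above Cebpb in 7 of 7 libraries (1.19-fold, exact p = 0.0156), and Cebpa was above Gata6 in 7 of 7 (1.62-fold, exact p = 0.0156). Epas1 was above Cbfb in 6 of 7 (1.16-fold, exact p = 0.0312), the exception lying among KO libraries, where Epas1 was 52.1 TPM and Cbfb 53.7 TPM in KO2. The other 6 neighbouring pairs did not differ beyond their spread, with exact p from 0.0625 for Nr5a2 over Epas1 to 0.875 for Gata6 over Runx1. After Benjamini-Hochberg adjustment over the 9 pairs the lowest values were 0.0703, so that no neighbouring pair passed.

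**Figure D2:**
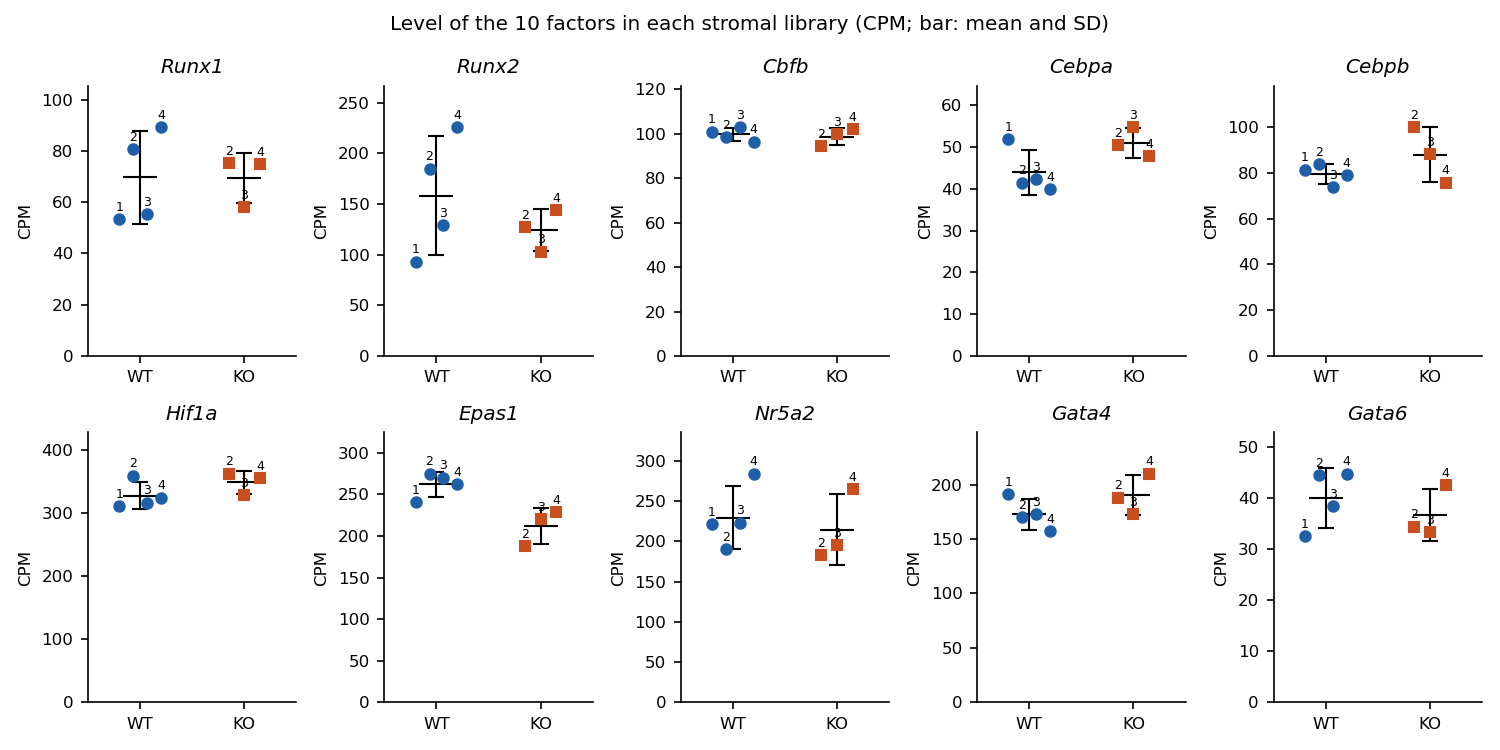
Normalized level of each of the 10 factors in every stromal library (y axis, CPM from 0; points numbered by replicate; horizontal bars, mean; whiskers, SD; 4 WT and 3 KO libraries). On this scale Epas1 is the only one whose groups are apart, with WT from 241 to 275 CPM and KO from 188 to 229 CPM (in TPM it overlaps and Cebpa is apart), and Runx2 has the widest WT spread, from 93.1 to 226 CPM.

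Runx1 (ENSMUSG00000022952, chr16:92398354-92623037, minus strand, GRCm39) encodes one of the DNA-binding subunits of core-binding factor. Its level was 53.3, 80.8, 55.3 and 89.3 CPM in WT1 to WT4 and 75.3, 58.0 and 74.9 CPM in KO2 to KO4. The WT libraries were spread wider than the KO libraries and covered their whole range. The difference was -0.01 on the log2 scale (SE 0.19, 95% interval -0.44 to 0.42, edgeR adjusted p = 0.997).

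Runx1 is read from a distal and a proximal start that lie far apart on chromosome 16, and both were in use in this tissue. The distal form, Runx1-201, starts at base 92623037 and held 50.1% ± 3.98 (SD, n = 4) of the gene's summed TPM in WT and 47.5% ± 0.599 (n = 3) in KO. The proximal form, Runx1-202, starts at base 92494216 and held 42.5% ± 4.14 in WT and 43.4% ± 3.01 in KO. Neither share differed beyond the spread of the libraries (two-sided exact permutation p = 0.286 for the distal and 0.771 for the proximal form). The forms open their reading frames with different codons, and Runx1-201 has 1395 coding bases against 1161 in Runx1-202. The first 60 coding bases of both, from the GRCm39 genome and the GENCODE M39 annotation, show this, with the start codon in capitals.

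Runx1-201: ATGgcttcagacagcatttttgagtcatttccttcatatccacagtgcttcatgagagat
Runx1-202: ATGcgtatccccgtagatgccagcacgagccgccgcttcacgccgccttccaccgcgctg

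The 200 bases upstream of each start also differ in composition, with 46.0% G and C before the distal and 65.0% before the proximal one. They are printed 5' to 3' on the minus strand, chr16:92623038-92623237 for the distal and chr16:92494217-92494416 for the proximal start, with capitals on the HIF core motif ACGTG in either orientation.

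Upstream of Runx1-201: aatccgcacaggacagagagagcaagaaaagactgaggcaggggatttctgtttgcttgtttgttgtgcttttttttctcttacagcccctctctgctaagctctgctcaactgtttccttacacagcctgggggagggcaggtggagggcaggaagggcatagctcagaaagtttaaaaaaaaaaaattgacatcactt
Upstream of Runx1-202: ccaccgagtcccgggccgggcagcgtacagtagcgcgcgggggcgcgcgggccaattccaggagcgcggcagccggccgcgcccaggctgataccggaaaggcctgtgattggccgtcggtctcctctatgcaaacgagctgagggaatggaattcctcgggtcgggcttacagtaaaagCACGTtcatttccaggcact

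The proximal stretch holds 1 such core and the distal stretch 0, but in a window from 250 bases before to 50 bases after each start the distal one holds 2 and the proximal one 1. A match of this kind is a description of letters and not of binding.

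Runx2 (ENSMUSG00000039153, chr17:44806874-45125684, minus strand), best known as the master regulator of bone formation, was the most variable member, with an SD of 0.45 on the log2 CPM scale over the 7 libraries. Its level was 93.1, 185, 129 and 226 CPM in WT1 to WT4, a 2.43-fold range, and 127, 103 and 144 CPM in KO2 to KO4. All 3 KO libraries lay within the WT range and below the WT median of 157 CPM. The difference was -0.34 (SE 0.269, 95% interval -0.95 to 0.27, edgeR adjusted p = 0.757). It rested on single WT libraries, being -0.11 without WT4 and -0.52 without WT1. With the replicate number as a block in edgeR it was -0.51 (unadjusted p = 0.000497, adjusted p = 0.0899). Whether the numbers mark pairs of libraries is not known.

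A single form, Runx2-202, held 69.7% ± 3.16 of the gene's TPM in WT and 68.7% ± 3.77 in KO, and its other quantified forms each held under 10%. It starts at the distal end of the gene, base 45125684, and its coding start is shown for comparison with that of the distal Runx1 form.

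Runx2-202: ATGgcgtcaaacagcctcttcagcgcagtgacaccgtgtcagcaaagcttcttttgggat

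Cbfb (ENSMUSG00000031885, chr8:105897291-105944633, plus strand), the shared partner of both RUNX factors, was the steadiest member, with an SD of 0.0451 on the log2 scale. Its 7 libraries lay between 94.5 and 103 CPM, with WT at 101, 98.4, 103 and 96.5 and KO at 94.5, 99.8 and 102. The groups overlapped, with KO2 just below the lowest WT library, and the interval of the difference, -0.13 to 0.10 around -0.02, was the narrowest of the 10. Its main form Cbfb-202 held 57.2% ± 3.19 of TPM in WT and 52.5% ± 2.85 in KO (exact permutation p = 0.171), with Cbfb-203 and Cbfb-201 making up most of the rest. These forms have 546, 444 and 561 coding bases for Cbfb-202, Cbfb-203 and Cbfb-201. Cbfb-201 and Cbfb-202 share their first 496 coding bases, and Cbfb-203 departs from both after base 166.

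The balance of RUNX subunits to CBFB followed the RUNX genes. The summed TPM of Runx1 and Runx2 per TPM of Cbfb was 0.765, 1.60, 0.983 and 1.85 in WT1 to WT4 and 1.20, 0.886 and 1.26 in KO2 to KO4. The groups overlapped, and the log2 difference was -0.14 (two-sided exact permutation p = 0.686). Runx1 was below Runx2 in every library, at 0.345 to 0.537 TPM per TPM of Runx2 in WT and 0.441 to 0.523 in KO, and this ratio had a log2 difference of 0.29 (exact permutation p = 0.2).

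Runx1, Runx2 and Gata6 had their lowest level in WT1 and their highest in WT4. Library WT1 also had the highest sums of granulosa markers (3920 CPM) and theca markers (1660 CPM) and the largest share of mitochondrial reads (7.17%, against 4.34% to 5.55% in the others). Library WT4 had the lowest granulosa sum of all (2410 CPM) and the lowest theca sum within WT (757 CPM). The part of tissue makeup in the spread of these 3 genes was not tested.

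By the smallest root mean square difference of centred log2 CPM over the 7 libraries, genes like Runx2 were Slc25a30, a mitochondrial carrier (0.102), and Col10a1, a collagen chain (0.112). Col10a1 was near the floor, at 0.313 to 0.723 CPM. Slc25a30 ran from 138 CPM in WT1 to 260 CPM in WT4, with KO libraries between 134 and 179 CPM. The genes most like Runx1 were Tgtp2 (0.0625), 6330403K07Rik (0.0652) and Esyt3 (0.0673), all at under 7 CPM. These are likenesses over 7 libraries of one tissue and carry no test.

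Among 8 relatives and corepressors of the RUNX factors, edgeR called 0 and DESeq2 0, with 3 at an unadjusted p under 0.05 (8.94% of all genes). The KO libraries were all below WT for 3 (9.05% of all genes lay apart in either direction), which were Runx1t1 (5.64 to 6.38 CPM in WT and 5.19 to 5.48 CPM in KO, unadjusted p = 0.0503) and the Groucho corepressors Tle1 and Tle3. Tle1 stood at 47.4, 54.8, 46.9 and 52.2 CPM in WT and 38.4, 42.7 and 41.1 CPM in KO (logFC = -0.31, SE 0.0719, edgeR adjusted p = 0.259, DESeq2 adjusted p = 0.0426 at a fold change under the threshold). Tle3 stood at 65.4 to 77.1 CPM in WT and 59.6 to 63.8 CPM in KO (logFC = -0.25, SE 0.0671, edgeR adjusted p = 0.315). Their relative Tle2 had higher fitted values in KO (logFC = 0.19, SE 0.0808, unadjusted p = 0.048) and overlapping groups, and Tle4 was level at 16.6 to 18.2 CPM in all 7 libraries. Runx3, the remaining RUNX gene, was scarce at 0.875 to 2.07 CPM.

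Of 10 genes listed as responsive to RUNX and CBFB, 9 were tested (Mmp13 was too low), with 0 called by edgeR, 2 by DESeq2 (0.436% of all genes) and 3 at an unadjusted p under 0.05 (8.94% of all genes), all 3 lower in KO. The metallothionein genes Mt1 and Mt2, whose products bind zinc and copper, had the largest differences among them. Mt2 stood at 305, 329, 249 and 225 CPM in WT and 168, 181 and 114 CPM in KO (logFC = -0.84, SE 0.18, edgeR adjusted p = 0.23, DESeq2 adjusted p = 0.000371). Mt1 stood at 248 to 311 CPM in WT and 146 to 214 CPM in KO (logFC = -0.55, SE 0.138, edgeR adjusted p = 0.305, DESeq2 adjusted p = 0.0115). In both, no KO library reached the lowest WT library. Abcb1b, a drug and lipid efflux pump, stood at 323 to 367 CPM in WT and 256 to 288 CPM in KO (logFC = -0.32, SE 0.07, edgeR adjusted p = 0.237), again without overlap. Groups were thus apart for 3 of the 9 tested, against 9.05% of all tested genes. The other 6 genes of the list, among them Rgcc (0.05) and Ptgs2 (-0.02, the prostaglandin synthase of ovulation), had overlapping groups. Spp1, which encodes osteopontin, had the largest difference of these and ran the other way, at 203 to 324 CPM in WT and 537, 250 and 343 CPM in KO (logFC = 0.51, SE 0.247, edgeR adjusted p = 0.581). Metallothionein and efflux genes answer to many other signals, and a link of these values to the RUNX factors was not tested.

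**Figure D3:**
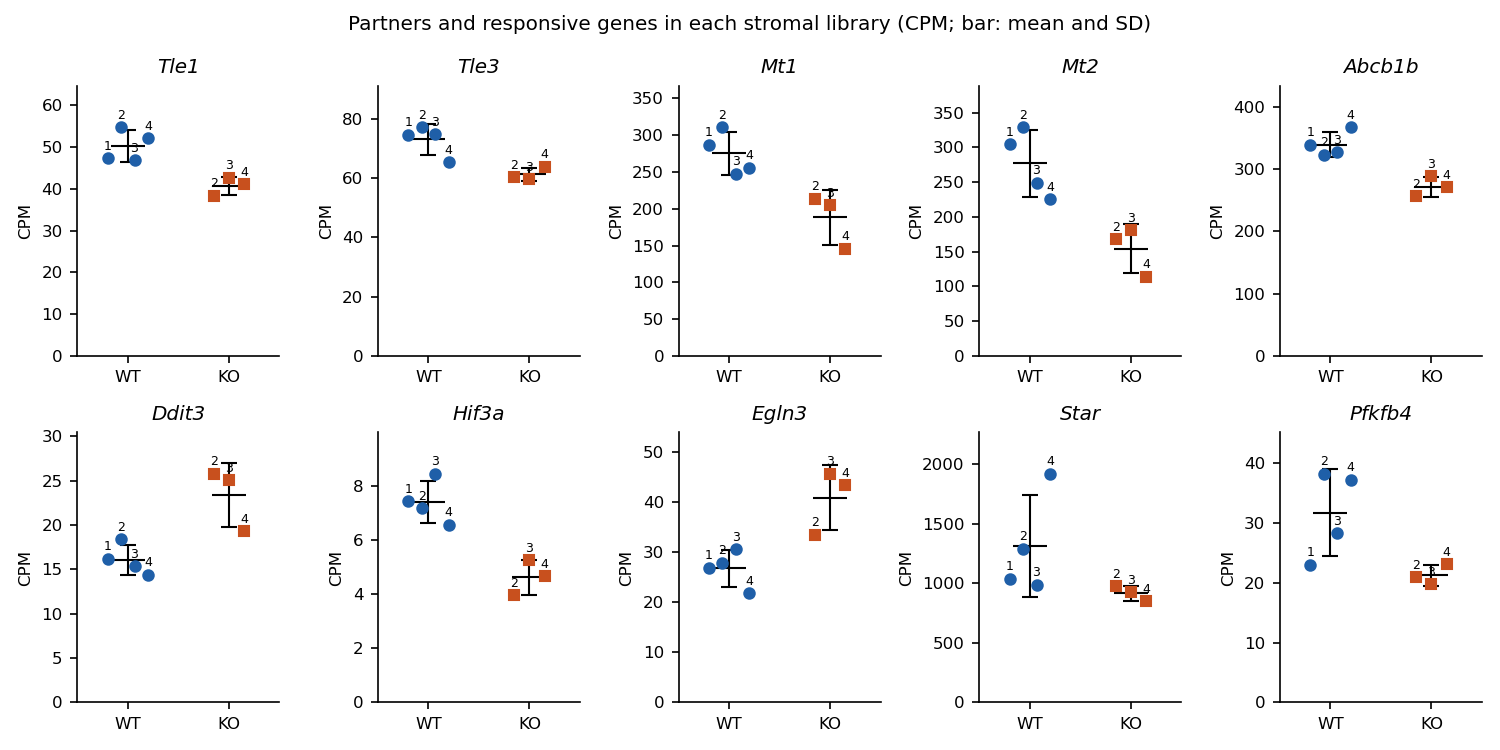
Level of 10 partner or responsive genes in every stromal library (y axis, CPM from 0; points numbered by replicate; bars, mean and SD; 4 WT and 3 KO libraries). The genes were picked from those with the lowest unadjusted p of their lists and do not stand for the lists. The KO libraries lie wholly below WT for Tle1, Tle3, Mt1, Mt2, Abcb1b, Hif3a and Star and wholly above WT for Ddit3 and Egln3, while Pfkfb4 overlaps at 23.0 CPM in WT1 and 23.1 CPM in KO4. Of all tested genes, 9.05% lie apart in either direction.

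Cebpa (ENSMUSG00000034957, chr7:34818718-34821353, plus strand) and Cebpb (ENSMUSG00000056501, chr2:167530835-167532338, plus strand) are compact genes for factors with roles in differentiation and inflammation, and granulosa cells without both do not ovulate or luteinise normally. Cebpa stood at 52.0, 41.5, 42.3 and 40.0 CPM in WT1 to WT4 and 50.5, 54.8 and 47.8 CPM in KO2 to KO4. In CPM the KO libraries lay above 3 of the WT libraries, and WT1 fell among them. In TPM the groups were apart, with all 3 KO libraries above the highest WT library at 33.2 (log2 difference 0.27, two-sided exact permutation p = 0.0571). The difference was 0.22 (SE 0.0955, 95% interval -0.00 to 0.43, unadjusted p = 0.0501, edgeR adjusted p = 0.56), and without WT1 it was 0.31 with an adjusted p of 0.183.

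Cebpb stood at 81.3, 83.8, 73.7 and 78.9 CPM in WT and 99.9, 88.2 and 75.6 CPM in KO. Of its KO libraries, KO2 and KO3 lay above WT and KO4 within it, and the KO spread (SD 12.2 CPM) was larger than that of WT (4.31 CPM). The difference was 0.15 (SE 0.092, 95% interval -0.06 to 0.35, edgeR adjusted p = 0.692), and it was 0.04 without KO2 and 0.25 without KO4. Cebpa stood at 0.309 to 0.396 TPM per TPM of Cebpb in WT and 0.316 to 0.392 in KO, a log2 difference of 0.09 (exact permutation p = 0.571). Cebpb has a single quantified transcript, and Cebpa has 2, of which Cebpa-202 held 70.7% ± 3.24 of TPM in WT and 72.2% ± 3.98 in KO.

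Around these factors, 5 of 6 listed relatives and regulators were tested (Cebpe was too low), with 0 called by edgeR and 1 by DESeq2 (0.436% of all genes). That gene was Ddit3 (CHOP), a dominant-negative relative induced by stress of the endoplasmic reticulum, at 16.2, 18.4, 15.4 and 14.4 CPM in WT and 25.8, 25.1 and 19.3 CPM in KO. Every KO library was above every WT library (logFC = 0.54, SE 0.119, unadjusted p = 0.00147, edgeR adjusted p = 0.237, DESeq2 adjusted p = 0.00617). It was the only gene of the 5 with groups apart, against 9.05% of all tested genes. Cebpd and Cebpg, which pair with C/EBP proteins, had overlapping groups at 30.9 to 50.5 CPM and 47.8 to 55.6 CPM. Trib1 and Trib2, pseudokinases that target C/EBP alpha for degradation, also overlapped, with fitted differences of 0.21 and 0.23 (edgeR adjusted p = 0.777 and 0.719), and that of Trib1 was -0.03 without KO2.

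Of 10 genes known to respond to C/EBP factors, 9 were tested, and 0 were called by edgeR and 0 by DESeq2 (0.0104% and 0.436% of all genes). An unadjusted p under 0.05 was found for 3 (8.94% of all genes). Ccl2, a monocyte chemokine, stood at 6.14 to 9.72 CPM in WT and at 20.9, 14.6 and 7.04 CPM in KO (logFC = 0.84, SE 0.316, edgeR adjusted p = 0.474), so its difference came from KO2 and KO3, and without KO2 it was 0.45. Fabp4, a fatty acid carrier of fat and endothelium, stood at 4.73 to 6.62 CPM in WT and 3.74 to 4.27 CPM in KO (logFC = -0.43, SE 0.147, edgeR adjusted p = 0.42). It alone of the 9 had groups without overlap, against 9.05% of all tested genes. Hp, which encodes haptoglobin, stood at 8.31 to 14.2 CPM in WT and 7.68 to 8.81 CPM in KO (logFC = -0.46, SE 0.182, edgeR adjusted p = 0.508). Members of the list thus lay on both sides of 0, with 5 higher and 4 lower in KO.

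Epas1 (ENSMUSG00000024140, chr17:87061087-87140838, plus strand), the HIF subunit best known from endothelium, had the largest difference relative to its error among the 10. It stood at 241, 275, 270 and 262 CPM in WT1 to WT4 and at 188, 220 and 229 CPM in KO2 to KO4. The KO libraries were the 3 lowest, with a gap from 229 to 241 CPM, and the KO mean was 81.1% of the WT mean. The difference was -0.30 (SE 0.0817, 95% interval -0.49 to -0.12, unadjusted p = 0.00505, edgeR adjusted p = 0.318), and 1.57% of all tested genes had a lower p. It did not pass the threshold in edgeR, in DESeq2 (adjusted p = 0.0722) or in limma-voom (adjusted p = 0.344). A two-sided exact permutation test of log2 CPM gave p = 0.0286, the smallest that 35 splits allow. In TPM the groups overlapped, at 61.6, 77.9, 75.5 and 74.0 in WT and 52.1, 61.5 and 68.3 in KO, with an exact permutation p = 0.0857 (log2 difference -0.26). Over 14 alternative fits the value ran from -0.36 to -0.22 and the unadjusted p from 0.00119 to 0.0197.

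Nearly all of it came from a single form, Epas1-201, at 99.7% ± 0.335 of the gene's TPM in WT and 99.2% ± 0.654 in KO, and that transcript had a log2 difference of -0.31 (SE 0.0896, unadjusted p = 0.01, edgeR adjusted p = 1 over 55145 transcripts). Its reading frame of 2622 bases opens as follows, with the start codon in capitals.

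Epas1-201: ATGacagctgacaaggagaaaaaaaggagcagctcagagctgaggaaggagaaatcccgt

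Endothelial markers also had lower fitted values in KO, none of them past the adjusted threshold in edgeR. Their 8 genes summed to 796 to 921 CPM in WT and 770 to 823 CPM in KO (two-sided exact permutation p = 0.0857), with 7 of 8 lower in KO and none at 0. Cdh5 and Tek had groups that did not overlap (logFC = -0.20 and -0.22, edgeR adjusted p = 0.397 and 0.423), as had 9.05% of all tested genes. Per 100 CPM of the summed markers, Epas1 stood at 26.2, 30.9, 31.1 and 32.9 in WT and at 22.8, 28.6 and 28.8 in KO, so that the groups overlapped and the log2 difference was -0.18 (exact permutation p = 0.286). This ratio was chosen after the values were seen. Smooth muscle and pericyte markers had lower fitted values in 6 of 7 cases as well, at sums of 1630 to 2110 CPM in WT and 1250 to 1650 CPM in KO and none at 0, with 4 of 7 at an unadjusted p under 0.05 (8.94% of all tested genes). Des and Cnn1 lay apart with larger differences than Epas1 (logFC = -0.78 and -0.70, edgeR adjusted p = 0.186 and 0.236). The part of smooth muscle and pericyte cells in the Epas1 values was not tested. The study lists Epas1 among the transcription factor genes with lower expression in granulosa cells of KO mice of this line. In the stromal libraries, granulosa markers summed to 2410 to 3920 CPM in WT and 3130 to 3890 CPM in KO, with overlapping groups. The part of granulosa RNA in the Epas1 values was not tested either.

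Hif1a (ENSMUSG00000021109, chr12:73948149-73996321, plus strand), the ubiquitous oxygen-regulated subunit, stood at 311, 360, 317 and 325 CPM in WT and 363, 329 and 356 CPM in KO. The groups overlapped, with the KO libraries above 3 of the 4 WT libraries, and the difference was 0.09 (SE 0.071, 95% interval -0.07 to 0.25, edgeR adjusted p = 0.762). The gene was read from 2 starts, with Hif1a-201 at 57.7% to 62.5% of TPM in WT and 53.8% to 60.3% in KO and Hif1a-202 at 34.0% to 37.7% and 35.7% to 41.3%. Neither share differed beyond its spread (exact permutation p = 0.314 and 0.343), although the level of Hif1a-202 had an unadjusted p of 0.0264 (log2 difference 0.17, edgeR adjusted p = 1). Their coding starts show that Hif1a-201, with 2508 coding bases against 2430, holds the opening of Hif1a-202 from its base 37. The unbroken stretch shared at their ends is 935 coding bases, so that the frames also differ beyond the opening.

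Hif1a-201: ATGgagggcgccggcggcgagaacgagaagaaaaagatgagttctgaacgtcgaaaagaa
Hif1a-202: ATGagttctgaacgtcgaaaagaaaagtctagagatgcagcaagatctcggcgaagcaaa

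The balance of the HIF subunits lay apart in the groups. Hif1a stood at 1.59, 1.63, 1.48 and 1.56 TPM per TPM of Epas1 in WT1 to WT4 and at 2.38, 1.89 and 1.95 in KO2 to KO4. No KO library reached down to the WT range, and the means were 1.57 ± 0.0665 and 2.07 ± 0.267. The log2 difference was 0.40 (two-sided exact permutation p = 0.0286, the smallest the design allows, and 0.143 after Benjamini-Hochberg adjustment over the 5 ratios tested), and it was 0.29 without KO2. The ratio draws on the same Epas1 reads as the test above and is not a separate result.

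**Figure D4:**
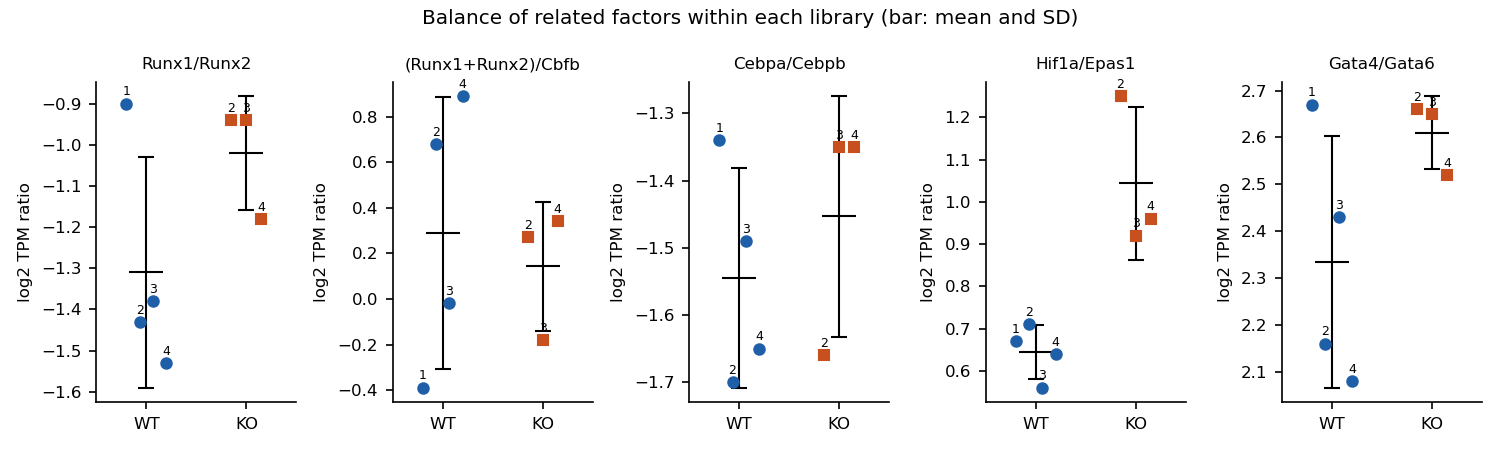
Log2 TPM ratio of related factors within each stromal library for 5 pairs (y axis, log2 ratio, not from 0; points numbered by replicate; bars, mean and SD; 4 WT and 3 KO libraries). For Hif1a over Epas1 WT lies between 0.56 and 0.71 and KO between 0.92 and 1.25, and in the other 4 panels the groups overlap.

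Of 13 partners and oxygen sensors of the HIF system, edgeR called 0 and DESeq2 2, with 2 at an unadjusted p under 0.05 and 3 whose groups did not overlap, against 0.436%, 8.94% and 9.05% of all genes. Hif3a, the gene for an alpha subunit of which several forms restrain the others, was scarce, at 7.44, 7.19, 8.46 and 6.57 CPM in WT and 3.96, 5.25 and 4.67 CPM in KO (logFC = -0.68, SE 0.132, edgeR adjusted p = 0.186, DESeq2 adjusted p = 0.000678). Egln3, a prolyl hydroxylase that marks HIF alpha for degradation and is itself a HIF target, stood at 26.9, 27.9, 30.6 and 21.8 CPM in WT and 33.5, 45.7 and 43.4 CPM in KO (logFC = 0.61, SE 0.132, edgeR adjusted p = 0.236, DESeq2 adjusted p = 0.00395). Vhl, the ubiquitin ligase subunit that recognises the hydroxylated protein, lay at 33.5 to 34.4 CPM in WT and 29.4 to 33.2 CPM in KO (logFC = -0.11, unadjusted p = 0.103). The other 10 genes overlapped, and the obligate partner Arnt was steady at 84.8 to 93.4 CPM over all libraries, as was the hydroxylase Egln1 (logFC = 0.05, SE 0.0505).

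Of 20 genes that respond to HIF, 10 had higher and 10 lower fitted values in KO, with a median log2 fold change of 0.01. EdgeR called 0 and DESeq2 0 (0.0104% and 0.436% of all genes), and none had groups apart (9.05% of all genes). The only gene with an unadjusted p under 0.05 (8.94% of all genes) was Pfkfb4, a regulator of glycolysis, at 23.0, 38.2, 28.3 and 37.2 CPM in WT and 20.9, 19.7 and 23.1 CPM in KO (logFC = -0.58, SE 0.167, edgeR adjusted p = 0.355, DESeq2 adjusted p = 0.0531). Vegfa, which encodes the main angiogenic factor, stood at 144 to 178 CPM in WT and 143 to 190 CPM in KO, and Ldha, lactate dehydrogenase, at 529 to 559 CPM and 528 to 605 CPM. Hk2, hexokinase, had a difference of 0.34 (SE 0.156, edgeR adjusted p = 0.568; 0.13 without KO2) and Lox, which cross-links collagen, one of -0.15 (SE 0.07, edgeR adjusted p = 0.568).

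Nr5a2 (ENSMUSG00000026398, chr1:136770303-136888186, minus strand) encodes an orphan nuclear receptor needed in granulosa cells for ovulation. It stood at 221, 190, 223 and 284 CPM in WT1 to WT4 and 183, 195 and 265 CPM in KO2 to KO4. Both groups spread widely and overlapped, with WT4 highest and KO2 lowest, and the difference was -0.10 (SE 0.158, 95% interval -0.46 to 0.26, edgeR adjusted p = 0.901). Without WT4 the fitted value was 0.03 and without KO2 it was 0.00, so that its sign rested on single libraries. The genes most like it over the 7 libraries were Btla (0.0798), Zfp39 (0.0854) and Fhod3 (0.088, in root mean square difference of centred log2 CPM). Btla was near the floor, at 0.25 to 0.45 CPM.

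It was read from 2 starts. The longer form Nr5a2-201 held 74.1% ± 2.74 of TPM in WT and 75.1% ± 4.48 in KO, and Nr5a2-202 held 24.6% ± 2.74 and 23.6% ± 4.56 (exact permutation p for the shorter form = 0.914). Their coding lengths are 1680 and 1497 bases, and the last 1497 coding bases of the longer form are the whole frame of the shorter one, so that they differ only at the 5' end shown here.

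Nr5a2-201: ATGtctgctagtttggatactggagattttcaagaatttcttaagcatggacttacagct
Nr5a2-202: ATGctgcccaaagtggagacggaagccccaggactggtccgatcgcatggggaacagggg

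Gata4 (ENSMUSG00000021944, chr14:63436362-63509141, minus strand) and Gata6 (ENSMUSG00000005836, chr18:11051565-11086995, plus strand) act together in granulosa and theca cells. Gata4 stood at 191, 170, 173 and 157 CPM in WT and 188, 173 and 210 CPM in KO, and the difference was 0.14 (SE 0.0862, 95% interval -0.05 to 0.34, edgeR adjusted p = 0.68), or 0.07 without KO4. Gata6 stood at 32.5, 44.5, 38.4 and 44.8 CPM in WT and 34.4, 33.3 and 42.5 CPM in KO, and the difference was -0.13 (SE 0.127, 95% interval -0.41 to 0.16, edgeR adjusted p = 0.824), between -0.24 without KO4 and -0.05 without KO3. Groups overlapped in both genes. Gata4 was above Gata6 in every library, at 4.22 to 6.38 TPM per TPM of Gata6 in WT and 5.72 to 6.33 in KO, a log2 difference of 0.27 (exact permutation p = 0.2).

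Gata4 was the member with the most divided output, with 4 forms above 10% of its TPM on average. Of these, Gata4-204 is annotated with only 47 coding bases, an incomplete frame, and its share was 8.62% in WT1 and 7.59% in KO2. Gata4-203 held 46.3% ± 2.38 in WT and 48.1% ± 6.39 in KO, Gata4-202 26.5% ± 4.34 and 25.5% ± 2.59, Gata4-201 14.2% to 15.5% and 12.1% to 17.0%, and Gata4-204 11.6% ± 2.12 and 11.3% ± 3.37. No difference in these shares was larger than their spread (exact permutation p from 0.6 to 0.857). The most abundant one, Gata4-203, starts at base 63451056 within the gene, and its 708 coding bases are the last 708 of the 1323 in Gata4-202, so that it lacks the first 615.

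Gata4-202: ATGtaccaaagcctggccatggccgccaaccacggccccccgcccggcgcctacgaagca
Gata4-203: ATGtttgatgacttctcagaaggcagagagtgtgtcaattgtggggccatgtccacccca

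Gata6 was mostly a single form, Gata6-201, at 89.5% ± 1.88 in WT and 89.6% ± 0.922 in KO.

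**Figure D5:**
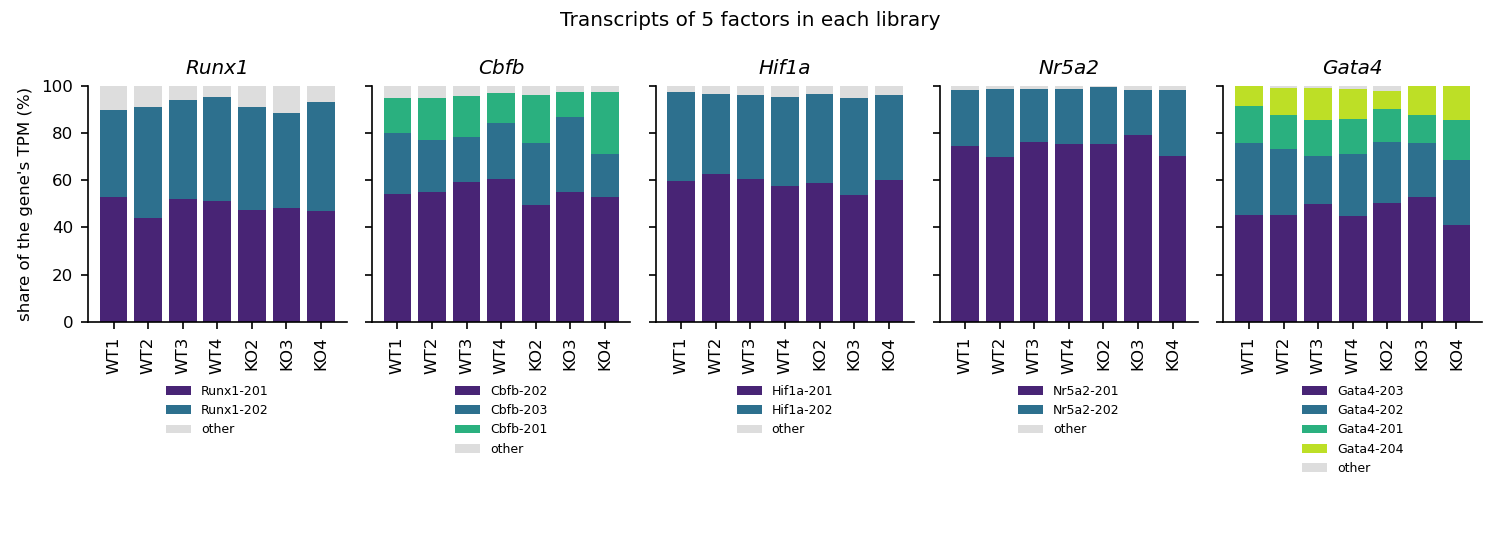
Share of each gene's summed TPM held by its transcripts in every library (y axis, % from 0 to 100; stacked bars, 1 per library, WT1 to WT4 and KO2 to KO4; grey, forms under 10%) for 5 of the factors with several main forms. Cebpa, which also has several, is not shown. The order of the forms is the same in every library for Hif1a, Nr5a2 and Gata4, with Hif1a-201 between 53.8% and 62.5% and Nr5a2-201 between 70.1% and 79.4% in all 7 libraries.

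Over all 10 genes, 56 transcripts were quantified, 35 were tested and 0 were called by edgeR or DESeq2, where 0.00725% of 55145 transcripts were called by edgeR. Of the 35, Epas1-201, Hif1a-202 and Cebpa-202 (3 in all) had an unadjusted p under 0.05, against 4.48% of all transcripts. Salmon assigns reads that several forms share by estimation, so that a share is less certain than a gene's sum.

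Among 11 tested relatives and cofactors of NR5A and GATA factors (Gata5 was too low), edgeR called 0 and DESeq2 0 (0.0104% and 0.436% of all genes), with 1 unadjusted p under 0.05 (8.94% of all genes). That was Gata2, at 11.3 to 14.0 CPM in WT and 10.3 to 11.8 CPM in KO (logFC = -0.23, SE 0.0948, edgeR adjusted p = 0.534). Nr5a1 (SF-1), the close relative of Nr5a2, was steady at 229 to 244 CPM in WT and 236 to 239 CPM in KO (logFC = 0.01, SE 0.0512). Gata1 and Gata3 stayed under 0.5 CPM in every library.

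Of 13 steroidogenic genes that respond to these factors, 4 had higher and 9 lower fitted values in KO, with 0 called by edgeR and 0 by DESeq2 (0.0104% and 0.436% of all genes). Their median log2 fold change was -0.18 against -0.00 over all tested genes, and 1 of the 13 had an unadjusted p under 0.05 (8.94% of all genes). Star, which brings cholesterol into mitochondria, stood at 1040, 1290, 988 and 1920 CPM in WT and 975, 924 and 849 CPM in KO (logFC = -0.51, SE 0.213, edgeR adjusted p = 0.529), without overlap but with a narrow gap, and the difference was -0.26 without WT4. It was the only gene of the 13 with groups apart, against 9.05% of all tested genes. Cyp17a1, the theca enzyme of androgen synthesis, stood at 1200, 903, 1160 and 467 CPM in WT and 431, 674 and 655 CPM in KO (logFC = -0.67, SE 0.303, edgeR adjusted p = 0.568). Lhcgr, the receptor for the ovulatory signal, stood at 508 to 627 CPM in WT and at 336, 374 and 618 CPM in KO (logFC = -0.38, SE 0.194, edgeR adjusted p = 0.609), from -0.69 without KO4 to -0.21 without KO2. Cyp17a1 is also a theca marker, and all 5 markers of theca had lower fitted values in KO, so that the part of theca RNA in these values was not tested.

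Chaperones and coregulators that act with PGR itself made up the last list, in which 12 of 14 genes had higher and 2 lower fitted values in KO. Over all tested genes 9551 were higher and 9682 lower. EdgeR called 0 and DESeq2 0 (0.0104% and 0.436% of all genes), 1 of the 14 had an unadjusted p under 0.05 (8.94% of all genes), and the median log2 fold change was 0.05. Hsp90aa1, the inducible chaperone that holds steroid receptors ready for ligand, stood at 628, 709, 607 and 647 CPM in WT and 736, 918 and 709 CPM in KO (logFC = 0.28, SE 0.102, edgeR adjusted p = 0.452), with WT2 and KO4 both at 709 CPM. Fkbp5, a cochaperone and a known target of steroid receptors, stood at 348 to 653 CPM in WT and 321 to 443 CPM in KO (logFC = -0.34, SE 0.2, edgeR adjusted p = 0.664), or -0.14 without WT4. The coactivator gene Crebbp had a difference of 0.10 (SE 0.0627, edgeR adjusted p = 0.674).

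The starts of the 10 genes were also searched for the factors' own motifs, from 250 bases before to 50 bases after the first base of the most expressed form on GRCm39, on both strands, as were those of all 15704 tested protein-coding genes for which a window was read. A window was counted under every motif it held. The RUNX motif TGTGGT was in the windows of Runx1 and Runx2 and in 14.1% of all windows, and the HIF core ACGTG in those of Hif1a and Runx1 and in 23.2% of all. The C/EBP motif TTGCNNAA was in the window of Gata4 (9.66% of all) and the GATA motif AGATAA in that of Nr5a2 (8.67%). The NR5A motif AAGGTCA was in 0 of the 10 and 4.04% of all windows, and the consensus palindrome bound by PGR in 0 of the 10 and 0.325% of all. Windows at a gene's other starts were not counted here and can differ. The window of Gata4-201 and Gata4-202 held a RUNX and a GATA motif, and that of Hif1a-202 a GATA motif. These are letters in a short window, and no binding was measured here.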

How the data were processed

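Stromal RNA-seq was analysed in 7 libraries, 4 WT and 3 KO, each pooled from 3 mice, with groups and replicate numbers taken from the sample labels. The authors quantified stranded paired-end 100 bp reads with Salmon against the GENCODE M26 mouse transcriptome on GRCm39 and deposited, for each transcript, expected counts (the estimated number of reads), TPM scaled by effective length, and both lengths.

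Transcripts were matched by identifier to GENCODE M39 on the same assembly, a later release, which placed 137570 of 139225 (98.81%) and at least 99.37% of every library's reads. Expected counts were summed per gene and rounded, and TPM was summed per gene. Depth was 47.4 M to 63.4 M reads per library, so that counting error was small beside the spread between libraries (common biological coefficient of variation 0.127). Sequences were read from the GRCm39 genome with the M39 annotation.

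All genes were tested with edgeR 4.0.16 in R 4.3.3 (TMM, filterByExpr, quasi-likelihood test, two-sided). P-values were adjusted by Benjamini-Hochberg over 19233 genes or 55145 transcripts, and the thresholds for a call were those of the study's methods, 0.05 for the adjusted p and 0.5 for the size of the log2 fold change. The study applied them to stroma with DESeq2, not edgeR, so that the edgeR calls are not made by its own test. A standard error is the size of the log2 fold change over the root of its F statistic. CPM values use TMM factors. Ratios and shares were compared by exact permutation over 35 splits, and levels by exact sign flips. DESeq2 1.42.0, limma-voom (limma 3.58.1), other scalings and filters, length offsets, a replicate block and leaving out each library were alternatives. The fits were tested on simulated data. The Benjamini-Hochberg values of the ratios and of the order of levels and the tests of members in TPM were added after the data were seen.

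The 10 members, the gene lists and the tests were chosen with earlier results of these data known. Lists came from general knowledge. The text names all members, Pgr, transcripts with at least 10% of a gene's TPM, the 3 genes of each pathway list with the lowest p, its genes with groups apart and a log2 fold change of at least 0.5, and the 3 genes most like each of the 3 most variable members. One of these like genes is not reported here. Other genes, such as Tle4, Runx3, Runx1t1, Spp1, Des, Cnn1, Tcf21, Upk3b, Rgcc, Ptgs2, Cebpd, Cebpg, Arnt, Egln1, Vegfa, Ldha and Nr5a1, were chosen after their values were seen, for their known role. The fibroblast, leukocyte, red blood cell and surface epithelium marker lists had 0 genes called by edgeR, with summed CPM of 4340 to 7000, 114 to 137, 249 to 315 and 20.7 to 43.6 in WT and 4510 to 5180, 104 to 149, 262 to 469 and 15.2 to 25.0 in KO.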

Additional observations from a re-analysis of the deposited data

How the results depend on the processing

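The count of members called was 0 under all 14 alternative fits, and 7 members (all but Runx1, Cbfb and Nr5a2) kept the sign of their fold change in each of them and on the TPM scale, an alternative chosen after seeing the data. Members at an unadjusted p under 0.05 numbered 1 to 4 over these fits. The fitted value of Runx1, -0.01, was 0.02 with limma-voom, 0.00 without a filter, 0.01 with length offsets and 0.08 on the TPM scale, and ran from -0.11 to 0.14 when libraries were left out in turn. In the same way Cbfb ran from -0.04 to 0.02 (0.02 in TPM) and Nr5a2 from -0.28 to 0.03. Of all tested genes 2 were called, against 143 with DESeq2, 36 without a filter and 6 with at least 10 counts in every library. Leaving out libraries gave 1 to 4, the 4 without WT4 and the 1 without WT3 and without KO2. DESeq2 called 2 RUNX-CBFB responsive genes (Mt1 and Mt2), 1 C/EBP relative (Ddit3) and 2 HIF partners (Hif3a and Egln3), and no other alternative called a gene of any pathway list. Calls in the marker lists were counted with the main edgeR fit alone. For transcripts the count was 4, against 258 with DESeq2, 2 with at least 10 counts in every library, and 0 to 5 with libraries left out, 0 without each single WT library. The cause of these shifts was not tested. Deviations of same-numbered libraries correlated at -0.01 (KO2), 0.11 (KO3) and 0.08 (KO4), and those of differently numbered ones at -0.13 to 0.10. These small values do not settle whether the replicate numbers mark pairs or a shared batch. The replicate block called 26 genes, 0 transcripts and 0 members. With libraries left out the log2 difference of Hif1a over Epas1 was 0.29 to 0.46, in a design too small to reach 0.05, that of the RUNX genes over Cbfb -0.37 to 0.06 around -0.14 (above 0 without WT4 and without KO3), Epas1 over Cbfb 0.18 to 0.26, Nr5a2 over Epas1 0.17 to 0.29, and Gata6 over Runx1 -0.07 to 0.04 (above 0 without WT4 and without KO2). Depth limits no statement on the members, whereas 3 KO libraries limit all of them.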
